A study of Bombyx mori with 3 samples.

Results

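The storage proteins of the silkworm Bombyx mori were followed in the larval fat body, the insect organ that makes and stores nutrients, after feeding with phoxim, an organophosphate insecticide. Probes were chosen by words of their descriptions (storage protein, hexamerin, arylphorin, methionine-rich, SSP1 or sex-specific storage), which gave 7 of the 23229 gene probes on the array, and 6 of these 7 were bright enough to be tested. Phoxim RNA came from larvae of strain p50 that on day 3 of the fifth instar were given mulberry leaves soaked in a 4 µg/mL phoxim solution, and their fat bodies were taken 24 h later. Control RNA came from larvae of the same strain and stage given leaves soaked in water. Both groups were of mixed sex, and each experiment used 30 larvae. Each of 3 two-colour arrays carried phoxim RNA and control RNA of the same replicate number, so every comparison rests on 3 pairs. Phoxim RNA was in Cy5 on replicates 1 and 3. On replicate 2 the labels also have it in Cy5 but the header of the file has it in Cy3, and ratios here follow that header.

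Storage hexamerins are large proteins that assemble as hexamers, and the fat body of the feeding last-instar larva secretes them into the hemolymph in great amounts. Before pupation the fat body takes them back up and packs them into granules, from which adult tissues draw amino acids during metamorphosis. They descend from the hemocyanins, copper-bearing oxygen carriers, but bind no oxygen themselves, and prophenoloxidases belong to the same superfamily. Arylphorins are rich in aromatic amino acids, and other hexamerins are rich in methionine. In Bombyx mori the methionine-rich SP1 accumulates mainly in females late in larval life.

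The 7 probes were unevenly annotated. Gene IDs were given for 2 of them, Sp1 (probe sw12337, the sex-specific storage protein SP1) and Sp2 (sw03545, arylphorin), and both IDs matched the RefSeq gene table under the same symbols. The other 5 carried no gene ID and were described by a similar protein, mostly of another moth. These were an arylphorin alpha subunit of Manduca sexta (sw06703), a moderately methionine-rich hexamerin of Hyalophora cecropia (sw13517), hexamerin 2 of Corcyra cephalonica (sw16543), a riboflavin-binding hexamerin of Hyalophora cecropia (sw20839) and the fibrohexamerin P25 of Bombyx mori itself (sw13991). Fibrohexamerin is a silk gland glycoprotein that is secreted with fibroin and is no storage hexamerin; it matched by wording alone. Of the 10 gene probes that the files annotate with oxygen transporter activity, the term given to hemocyanin relatives, 5 were among these 7 probes (Sp1, Sp2, sw06703, sw13517 and sw20839). Probes without a gene ID may read transcripts of related genes, so each is reported by its probe.

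Brightness divided the probes into saturated, measurable and undetected spots. Spots at 99% or more of the highest intensity of their channel were taken as saturated. Probe sw06703 was saturated in both RNAs on all 3 arrays, and of the 23229 gene probes it was the only 1 for which this held. Sp1 was saturated on 2 of 3 arrays in phoxim RNA and on 3 of 3 in control RNA. Sp2 was saturated on 2 of 3 arrays in phoxim RNA and on 1 of 3 in control RNA, each time in the Cy5 channel. The hexamerin probes sw13517, sw16543 and sw20839 were never saturated. Fibrohexamerin was above background, the 95th percentile of the negative control spots of its channel, on 0 of 3 arrays in phoxim RNA and on 0 of 3 in control RNA, and was not tested.

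**Figure D1:**
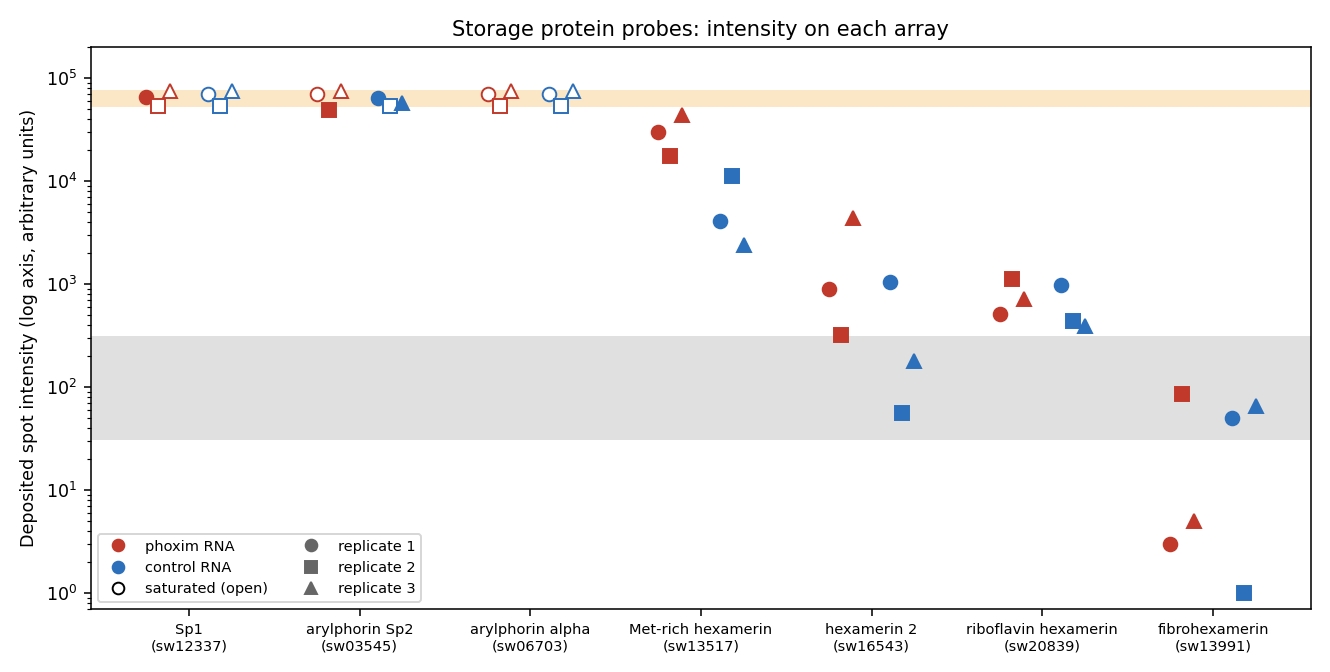
Deposited spot intensity (log axis, arbitrary units) of the 7 probes on each array, with phoxim RNA in red to the left of control RNA in blue; open symbols are saturated, the upper band spans the channel ceilings, the lower band spans the background thresholds, and a value of 0 is drawn at 1. The red and blue points separate for the methionine-rich hexamerin sw13517, whose phoxim intensities lie between 17571 and 44371 and whose control intensities lie between 2433 and 11262.

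For the major storage proteins the arrays could not show whether phoxim changed the transcript. Sp1 had intensities of 65425, 53960 and 75888 in phoxim RNA on replicates 1, 2 and 3, against 70097, 54017 and 75809 in control RNA. Probe sw06703 had 70163, 53967 and 75896 in phoxim RNA, against 70103, 54017 and 75837 in control RNA. For both probes, all values but the phoxim value of Sp1 on replicate 1 lay at the ceiling of their channel, so their ratios measure no fold change. In bulk tissue, a change in the share of cells and a change in RNA per cell cannot be told apart for any of these probes.

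Sp2 was the major storage protein with the most signal below the ceiling. Its intensities were 70157, 49051 and 75890 in phoxim RNA, against 64142, 54017 and 57733 in control RNA. The higher RNA was thus phoxim on replicates 1 and 3 and control on replicate 2, and on every array it was the RNA in Cy5, which stood at the ceiling. In Cy3, Sp2 reached 91.5% and 76.1% of the ceiling with control RNA on replicates 1 and 3 and 90.9% with phoxim RNA on replicate 2. These unsaturated values come from different arrays, so no ratio is taken between them.

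Saturated spots also took their ratio from the normalization. The plain log2 quotient of phoxim over control was 0.0011 for sw06703 on replicate 3 and 0.0015 for Sp1 on the same array. After loess, a smooth correction of the ratio by brightness, both probes stood at -0.87 there, since loess had shifted each by -0.87. In the authors' deposited table the ratio of Sp1 was 1.31, 1.61 and 0.884 on replicates 1, 2 and 3, whereas the plain quotients of the intensities were 0.933, 0.999 and 1.00. For such spots the fit returns a value that the processing sets and that is no measured difference. Over the 3 arrays limma returned mean log2 ratios of -0.27 ± 0.52 for Sp1 (adjusted p = 0.79), -0.24 ± 0.55 for sw06703 (adjusted p = 0.83) and -0.10 ± 0.36 for Sp2 (adjusted p = 0.93), each as mean ± SD over the arrays. None of these passed the test, and with the authors' deposited ratios the same fit returned values above 0, at 0.30 for Sp1, 0.11 for sw06703 and 0.17 for Sp2.

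**Figure D2:**
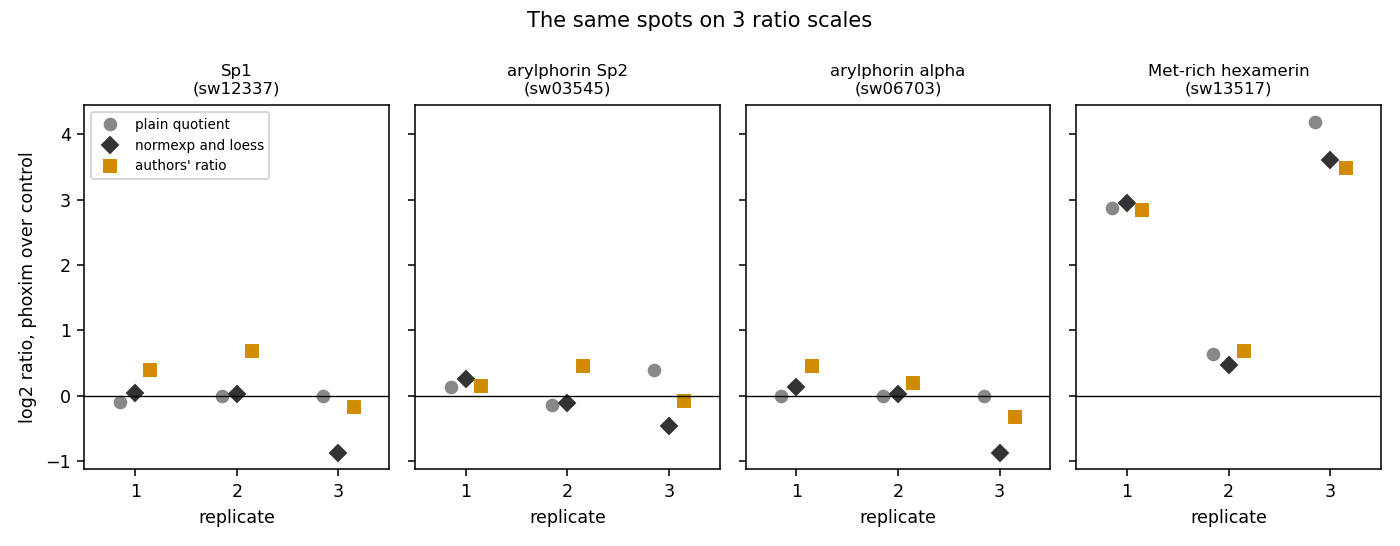
Log2 ratio of phoxim over control on replicates 1, 2 and 3 for Sp1, Sp2, the arylphorin alpha probe and the methionine-rich hexamerin probe, as the plain quotient of intensities, after normexp and loess, and as the ratio deposited by the authors. The scales part for the saturated probes, where the plain quotient of sw06703 is near 0 on all arrays, and lie above 0 on all arrays for sw13517.

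The moderately methionine-rich hexamerin probe sw13517 had the largest mean difference among the 6 tested probes, with replicate 1 in the fit. Without replicate 1 its mean log2 ratio was 2.04, and that of the hexamerin 2 probe sw16543 was larger, at 2.51. Hexamerins of this kind supply methionine and other amino acids to the developing adult; in Hyalophora cecropia, the moth that gave the probe its description, the protein is a storage protein of the larva. Its intensities were 30034, 17571 and 44371 in phoxim RNA on replicates 1, 2 and 3, against 4100, 11262 and 2433 in control RNA. All 3 phoxim values lay above all 3 control values. In the labelled dye order, replicate 2 would have 11262 in phoxim RNA against 17571 in control RNA, and the groups would overlap. The rank of the spot among the 23229 gene probes, counted from the brightest, was 53, 109 and 30 in phoxim RNA, against 686, 185 and 1011 in control RNA.

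After normalization the ratios of sw13517 differed widely in size between the arrays while keeping their sign. Its log2 ratios were 2.94, 0.47 and 3.61 on replicates 1, 2 and 3, or 7.69-fold, 1.39-fold and 12.2-fold higher in phoxim RNA. The mean was 2.34 ± 1.65 (SD, n = 3), a fold of 5.07 with a limma 95% confidence interval from 1.93 to 13.3. Limma pulls the variance of each probe toward that of all tested probes. The interval of sw13517 is therefore narrower, and its p smaller, than its 3 ratios alone would give. With limma the unadjusted p was 0.0056 and the Benjamini-Hochberg adjusted p over all tested probes was 0.33, so the difference did not pass the threshold of 0.05. The SD of sw13517 between arrays exceeded that of 97.2% of the 6154 tested probes. On the per-channel log2 scale after normalization between arrays, phoxim levels of 14.84, 14.02 and 15.15 stood above control levels of 11.90, 13.55 and 11.54.

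The smallest ratio of sw13517 came from replicate 2, the array whose header reverses the dyes. On that array the log2 ratio of 0.47 lay at the 83.9th percentile of all tested probes, while those on replicates 1 and 3 lay at the 98.7th and 99.9th percentiles. With a dye term in the fit the phoxim effect was 1.88 (95% confidence interval 1.03 to 2.72, adjusted p = 0.79) and the dye effect was 1.40. With replicate 2 turned as the labels have it, the mean was 2.03 (adjusted p = 0.88), with signs that no longer match between the arrays. Without replicate 2 the mean was 3.28 (adjusted p = 0.35). The array and the dye order of replicate 2 cannot be told apart here, because no other array has that order.

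The probe for hexamerin 2 (sw16543) was higher in phoxim RNA on 2 of 3 arrays with the header's dye order of replicate 2 and on 1 of 3 with the labelled order, and its mean depended on replicate 3. Hexamerin 2 is a larval storage hexamerin of the rice moth Corcyra cephalonica. The intensities of sw16543 were 910, 321 and 4451 in phoxim RNA, against 1062, 56 and 181 in control RNA. The groups overlapped, and the control value of replicate 2 was not above background. The log2 ratios were -0.18, 0.94 and 4.08, with a mean of 1.61 ± 2.21 (SD, n = 3; limma adjusted p = 0.49). Without replicate 3 the mean was 0.38 (adjusted p = 1.00), and in the labelled order it was 0.99 (adjusted p = 0.91). Its ratio on replicate 3 lay at the 99.95th percentile of all tested probes, and on replicate 1 at the 32.8th.

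The riboflavin-binding hexamerin probe (sw20839) showed no common direction. In Hyalophora cecropia this hexamerin carries riboflavin in the hemolymph. The intensities of sw20839 were 512, 1126 and 716 in phoxim RNA, against 976, 438 and 398 in control RNA. Phoxim was lower on replicate 1 and higher on replicates 2 and 3 (in the labelled order, higher on replicate 3 alone), and the groups overlapped. The log2 ratios were -0.81, 0.68 and 0.78, with a mean of 0.22 ± 0.89 (SD, n = 3; limma adjusted p = 0.88) and a 95% confidence interval from -0.71 to 1.14. That interval holds a difference of up to 2.20-fold higher in phoxim RNA and one of 0.613-fold.

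The unsaturated hexamerins did not move as a set from array to array. The log2 ratio of sw13517 exceeded that of sw20839 by 3.75 and 2.83 on replicates 1 and 3 and differed from it by -0.21 on replicate 2. On replicate 1 sw13517 was the only 1 of these 3 hexamerins above 0. On replicate 3 all 3 were above 0, and sw16543 had the largest ratio. On replicate 2 the ratios of sw16543, sw20839 and sw13517 were 0.94, 0.68 and 0.47 by the header, and in the labelled order they turn to -0.94, -0.68 and -0.47. The fibrohexamerin probe (sw13991), read as a silk gland marker, had intensities of 3, 87 and 5 in phoxim RNA, against 50, 0 and 66 in control RNA, all within the background of their channel. Another P25 probe, described as fibroin P25 of Bombyx mandarina (sw12944), was bright enough to be tested. Its log2 ratios were 0.33, -1.10 and -0.80 on replicates 1, 2 and 3 (mean -0.52 ± 0.75, limma adjusted p = 0.62).

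**Figure D3:**
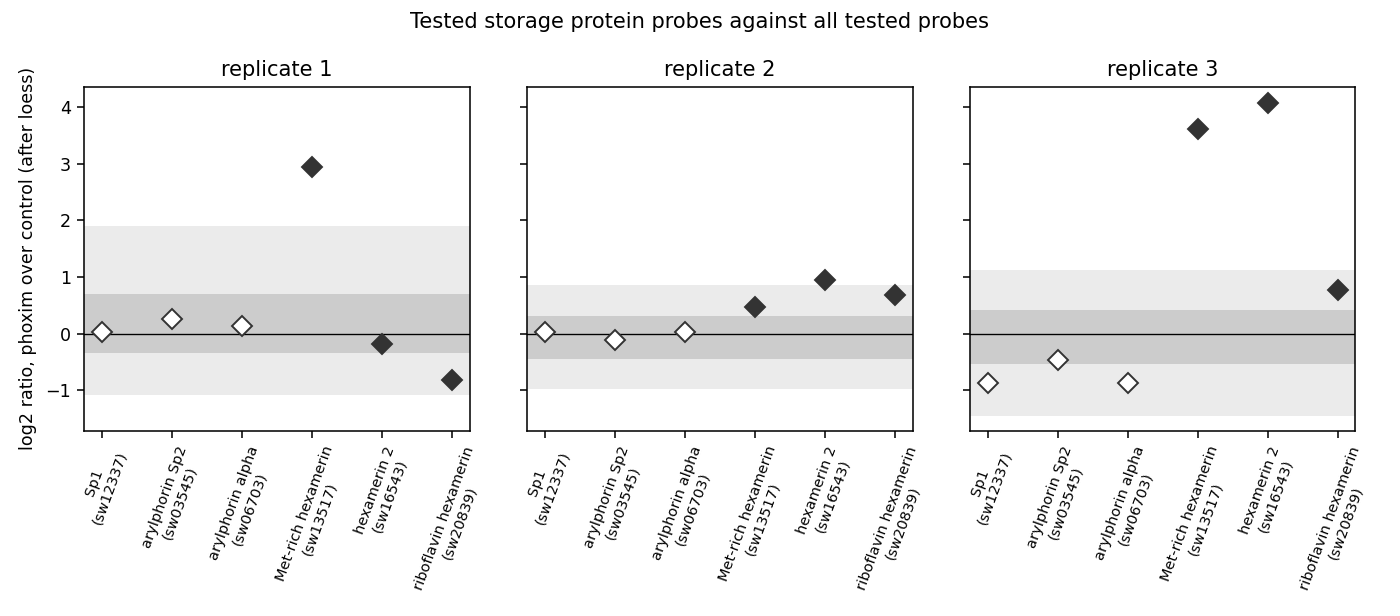
Log2 ratio of phoxim over control after loess for the 6 tested probes on each array, with open diamonds where either RNA was saturated; the dark band runs between the 25th and 75th percentiles and the light band between the 5th and 95th percentiles of the tested probes of that array. The methionine-rich hexamerin sw13517 lies above the light band on replicates 1 and 3, hexamerin 2 (sw16543) on replicates 2 and 3, and the saturated probes lie inside the light band on all arrays.

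Counted over the 6 tested probes, the storage proteins gave no call, but 3 of the 6 (Sp1, Sp2 and sw06703) were saturated in at least 1 channel on every array and could hardly show a change. The counts therefore speak for 3 unsaturated hexamerins. With limma, 0 of 6 had an adjusted p under 0.05, against 0 of all 6154 tested probes (0%). At an unadjusted p under 0.05 there was 1 probe higher in phoxim RNA (sw13517), where the share over all tested probes was 6.13%, and 0 probes lower, where that share was 4.81%. The ratio had the same sign on all arrays for 1 probe, again sw13517 and higher, against 18.2% of all tested probes higher and 17.1% lower on all 3 arrays. Phoxim levels all lay above control levels for that probe alone and below them for 0 probes, against 7.67% of all tested probes above and 6.03% below. In the labelled order of replicate 2, sw13517 no longer has the same sign on all arrays and its groups overlap. These counts are of single probes and are not set apart from the background shares. The median of the mean log2 ratio was 0.057 over the 6 probes and 0.0035 over all tested probes. The 3 means below 0 were those of the saturated probes, and the 3 unsaturated hexamerins all had a mean above 0. Of all 6154 tested probes, 3098 had a mean above 0. The median of the 3 unsaturated hexamerins, 1.61, is the mean of sw16543, which was 0.38 without replicate 3. In the labelled order the mean of sw20839 was -0.24.

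Other genes of fat body secretion and of the hormones and nutrients that act on it were read in 7 lists, chosen by words of their descriptions. None of the tested probes in any of these lists passed at an adjusted p under 0.05. With limma at an unadjusted p under 0.05, 6.13% of all tested probes were higher and 4.81% lower. The counts of these 7 lists, at most 1 probe per direction in each, are not set apart from those shares. The 30K lipoproteins, small hemolymph proteins that the fat body stores beside the hexamerins, had 21 tested probes with a median log2 ratio of 0.20. By array the median was 0.64, -0.21 and 0.47 on replicates 1, 2 and 3. Of the 21 probes, 1 was higher and 0 were lower at an unadjusted p under 0.05. The smallest p was that of a 21G1-type probe (sw09130), with log2 ratios of 1.32, 0.60 and 0.99 on replicates 1, 2 and 3 (mean 0.97 ± 0.36, adjusted p = 0.39), followed by sw06737 (mean 0.63 ± 0.58, adjusted p = 0.52). Yolk and lipid carriers had 12 tested probes with a median of 0.27, of which 1 was higher and 0 were lower at that p. By array their median was 1.5, -0.57 and -0.49, above 0 on replicate 1 alone. Their smallest p-values came from 2 probes that resemble the microvitellogenin of the tobacco hornworm, sw12287 (mean 0.70 ± 0.31, adjusted p = 0.45) and sw22523 (mean 1.08 ± 1.20, adjusted p = 0.46).

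Phenoloxidases, the melanin-forming enzymes of the hexamerin superfamily, had 4 tested probes with a median of -0.0051 and none past an unadjusted p of 0.05. The prophenoloxidase subunit 1 gene Pro-po1 (probe sw19955) had log2 ratios of -0.53, -0.19 and -0.74 (mean -0.49 ± 0.27, adjusted p = 0.56). That probe was above background in phoxim RNA on 2 of 3 arrays. A second and brighter probe of the gene (sw17550) had -0.05, -0.42 and -0.02 (mean -0.16 ± 0.23, limma adjusted p = 0.87). A probe shared by both forms of prophenoloxidase-2 (sw05534) had 3.29, -1.03 and 0.50 (mean 0.92 ± 2.19, adjusted p = 0.67). The iron carriers, ferritin and transferrin, had 5 tested probes with a median of -0.14 and none past that p, with transferrin (LOC692564, probe sw18597) at -0.78 ± 0.75 and a second transferrin probe (sw21709) at -0.45 ± 0.41.

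Storage protein genes of moths respond to juvenile hormone and ecdysone, and lists for both hormones were mixed. The juvenile hormone list had 13 tested probes with a median of 0.28, of which 1 was higher and 1 lower at an unadjusted p under 0.05. The lower 1 was a juvenile hormone diol kinase probe (sw04517), an enzyme type that disposes of the hormone, with ratios on the 3 arrays between -1.43 and -0.78 (mean -1.07 ± 0.33, adjusted p = 0.35). The higher 1 was described as a juvenile hormone resistant protein (sw07095, mean 1.07 ± 1.01, adjusted p = 0.44). The ecdysone list had 15 tested probes with a median of 0.0032, of which 1 was higher and 0 were lower at that p. It was the ecdysone receptor gene Ecr (probe sw18055), at 2.60, 0.30 and 2.59 on replicates 1, 2 and 3 (mean 1.83 ± 1.33, adjusted p = 0.35). An E75 nuclear receptor probe (sw07625) followed at 0.96 ± 1.02 (adjusted p = 0.46). Nutrient signalling had 6 tested probes with a median of 0.040 and none past that p; its leading probes, an insulin-related peptide binding protein (sw08270) at 1.13 ± 2.58 and an insulin receptor-like probe (sw12115) at 0.43 ± 0.76, varied more between arrays than their means.

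**Figure D4:**
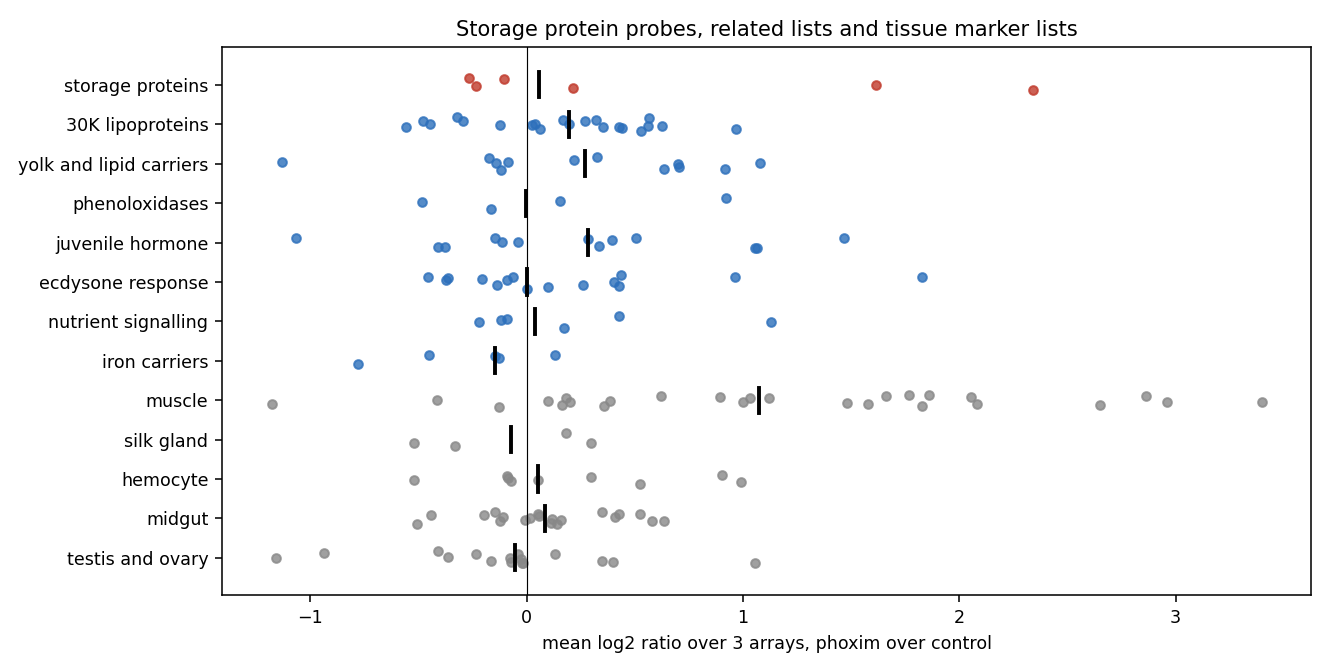
Mean log2 ratio of phoxim over control over 3 arrays for each tested probe of the storage proteins (red), of 7 related lists (blue) and of 5 tissue marker lists (grey), with a bar at each median. Storage proteins have a median of 0.057, saturated probes included, with sw13517 at 2.34, and the muscle list has the largest median, 1.08.

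Among all tested probes with a described gene, 3 lay nearest to sw13517 in their ratios, by Euclidean distance over the 3 arrays. An aldehyde reductase-like probe (sw14209) had 2.42, 0.34 and 2.82 at a distance of 0.96, a fatty acid desaturase-like probe (sw11269) had 3.51, 1.14 and 3.09 at 1.02, and the probe of the para sodium channel alpha subunit (LOC100101199, sw13758) had 2.02, 0.26 and 3.12 at 1.06. With 3 points a likeness of this kind is only a description, and all probes share the same arrays and dyes.

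Tissue lists, chosen by words of descriptions, were read as well. Of the fat body products, Sp1 and the arylphorins lay at 76.1% of the ceiling or above. The hexamerin probes sw13517, sw16543 and sw20839 reached at most 58.5%, 5.9% and 2.1% of it. The median ratio of the muscle markers and the ratio of sw13517 were both smallest on replicate 2. The largest was on replicate 1 for the muscle markers and on replicate 3 for sw13517. The 54 muscle probes summed to intensities of 158606, 94615 and 114152 in phoxim RNA on replicates 1, 2 and 3, against 29004, 80914 and 32734 in control RNA. Of the 54, 42, 21 and 43 were above background in phoxim RNA, against 14, 26 and 22 in control RNA, and 11 of the 54 never were. Of all gene probes, 43.2%, 18.9% and 44.4% were above background in phoxim RNA, against 24.9%, 27.0% and 27.2% in control RNA. Both the muscle counts and these shares were larger in Cy5 on every array. Over the 26 tested muscle probes the median log2 ratio was 2.28, 0.061 and 0.63 on the 3 arrays, beside 2.94, 0.47 and 3.61 for sw13517 and -0.18, 0.94 and 4.08 for sw16543. With limma at an unadjusted p under 0.05, 12 of the 26 were higher and 1 was lower, against 6.13% and 4.81% of all tested probes. Higher on all arrays were 13, against 18.2% of all tested probes, and 0 passed at an adjusted p under 0.05. Both titin2 probes had the smallest p-values of that list, sw06585 at 2.65 ± 1.14 and sw03048 at 1.66 ± 0.34 (adjusted p = 0.28 for each). The part of muscle RNA in the hexamerin ratios was not tested. The other tissue lists had medians of 0.085 for midgut (20 tested probes), 0.052 for hemocytes (9), -0.056 for testis and ovary (16) and -0.074 for the silk gland (4). The wording also drew in genes that do not mark the tissue. The hemocyte probes with the smallest p were described as a REV1-like DNA repair protein (sw14409) and Adamts-1 (sw02458). A silk gland probe (sw08571) was described as a NADH-ubiquinone oxidoreductase subunit. These medians are therefore no measure of those tissues.

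The share of gene probes above background followed the dye. In phoxim RNA 43.2%, 18.9% and 44.4% of gene probes were above background on replicates 1, 2 and 3, against 24.9%, 27.0% and 27.2% in control RNA, with the higher share in Cy5 each time. Saturated gene probes numbered 11, 5 and 11 in phoxim RNA, against 4, 16 and 4 in control RNA, again with more in Cy5. The background threshold was lower in Cy5 on every array, at 46.9, 307.1 and 31.8 in phoxim RNA against 188.35, 101 and 175.7 in control RNA. The median intensity of gene probes was higher in Cy3, at 29, 105 and 23 in phoxim RNA against 71, 16 and 70 in control RNA. Across the tested probes Pearson's r between the ratios was 0.355 for replicates 1 and 3, 0.273 for replicates 2 and 3, and 0.028 for replicates 1 and 2; this describes probes that share their arrays.

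Other processing settings numbered 15, and 6 of these (other filters on probes, saturated spots left missing, no replicate block, fibrohexamerin left out) cannot move the mean of sw13517. It was positive in the 9 that did move it, from 1.71 to 3.28, with adjusted p-values from 0.16 to 0.88 and unadjusted p-values under 0.05 over all 15. For sw16543 the mean was positive in the 9 settings that moved it, from 0.38 to 2.51, with adjusted p-values from 0.21 to 1.00 and unadjusted p-values under 0.05 in 4. Where both channels had to exceed background on all arrays, sw16543 dropped out, because its control value on replicate 2 did not. For sw20839 the mean was positive in 6 of the 9 settings that moved it, from -0.24 to 0.73, and the unadjusted p was under 0.05 in 0.

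**Figure D5:**
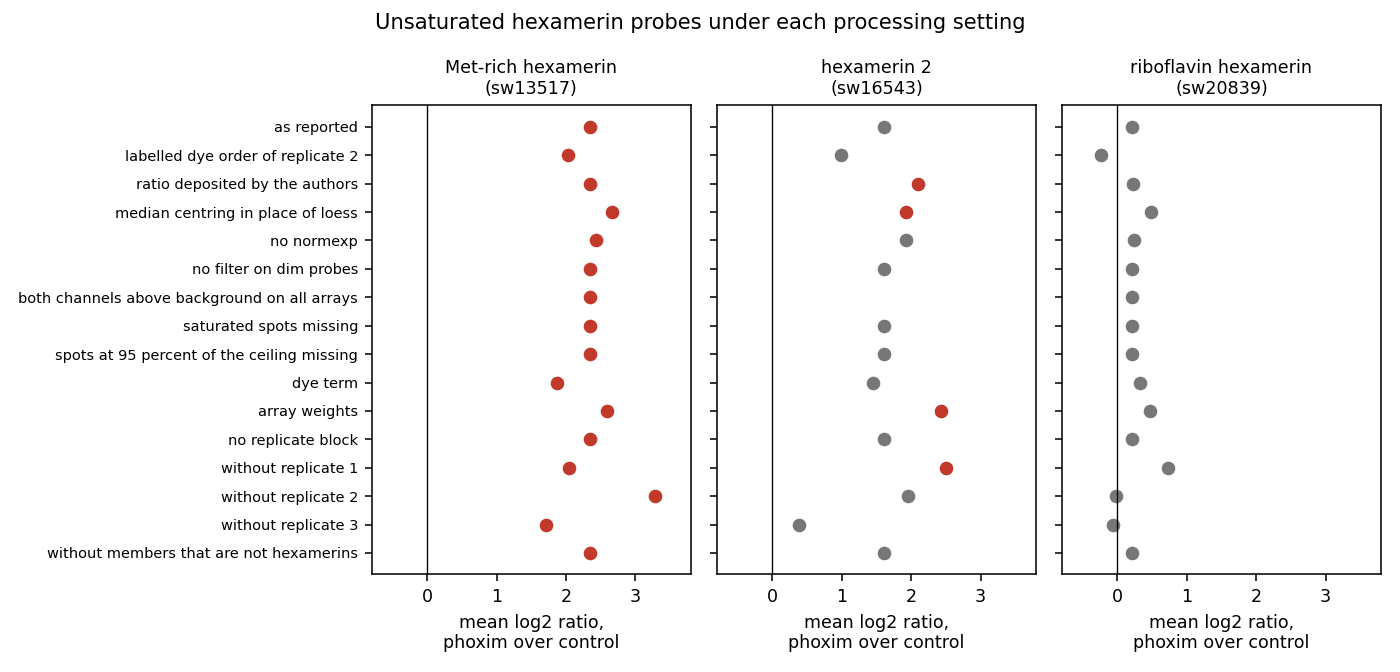
Mean log2 ratio of phoxim over control for the 3 unsaturated hexamerin probes under the reported processing and each of 15 other settings, in red where the unadjusted p is under 0.05 and in grey otherwise. Where both channels had to exceed background on all arrays, sw16543 has no point. All means of sw13517 lie between 1.71 and 3.28, whereas those of sw20839 lie on both sides of 0.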

How the data were processed

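Each of 3 two-colour arrays compared fat body RNA of phoxim-treated larvae with that of controls. Amplification by T7 polymerase and Cy5 or Cy3 labelling are given per the labels' protocols. The intensity values were used as deposited; blank spots lay near 0 and some values below 0, so a background had been taken off, in a way no source states. The ratio column is phoxim over control per the file headers, normalized by the authors in a way not stated. The deposited log2 table differed from the log2 of that ratio by at most 4.96e-09; its medians were 0.01, -0.02 and 0.05, and its centring is unknown.

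On the labels' account dyes were not swapped; replicate 2 has them reversed in its header. Intensities were processed with normexp (offset 50) and loess within each array, with the 677 positive and 382 negative control spots at weight 0 (limma 3.58.1, R 4.3.3). A probe was tested (6154 of 23229) if on each of the 3 arrays it was above background in 1 channel or both, background being the 95th percentile of that channel's negative control spots. The mean log2 ratio was set against 0 in limma (lmFit, then eBayes; two-sided), with p-values Benjamini-Hochberg adjusted over the probes kept; the array is the pair. The script was tested on simulated data. Per-channel levels came after Aquantile. The number of arrays limits the precision. For p-values and confidence intervals, eBayes pulls each probe's variance between these 3 replicates toward that of all tested probes. All 7 members are named, with 2 probes of the smallest p per related list, a second Pro-po1 probe, some probes of tissue lists and the 3 nearest probes to the member with the smallest p. Members and lists were chosen with earlier results of these data known, by words of descriptions, so lists also hold members by wording.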

Additional observations from a re-analysis of the deposited data

How the results depend on the processing

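The count of storage protein probes at an adjusted p under 0.05 was 0 under all 15 alternatives, and over all probes it was 0 in each of them too. The count at an unadjusted p under 0.05 was 1 as reported and 2 with array weights, with median centring or with the authors' deposited ratios, where sw16543 joined sw13517. Over all 6154 tested probes the count was 673 as reported, and it rose in these settings to 1005, 788 and 838. With 1 replicate left out the storage protein count lay between 1 and 2. Over all tested probes it was then 708, 691 and 332 without replicates 1, 2 and 3. The count with the same sign on all arrays was 1 as reported, 0 with the labelled dye order of replicate 2, 2 with median centring, and between 1 and 4 with 1 replicate left out (4 without replicate 1 and 3 without replicate 3, where 2 arrays decide the sign). The share of all tested probes with the same sign is not given for these other settings, so these counts have no background beside them. The median over the members was 0.057 as reported, -0.13 with the labelled order, 0.26 with the deposited ratios and 0.36 under median centring, which moved the median of all tested probes to 0.24. It was -0.10 without the filter on dim probes and -0.10 where both channels had to exceed background, and 1.61 with saturated spots, or spots at 95% of the ceiling, left missing, which leaves only the 3 unsaturated hexamerins. With 1 replicate left out it lay between -0.057 (without replicate 2) and 0.22 (without replicate 1).

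Means that changed sign belonged to Sp1, Sp2, sw06703 and sw20839, none of which passed. With the deposited ratios Sp1 was at 0.30, Sp2 at 0.17 and sw06703 at 0.11; with median centring they were at 0.084, 0.25 and 0.12; and without normexp Sp2 was at 0.011. Where these spots are saturated the scaling sets the ratio. With the labelled order sw20839 was at -0.24. With 1 replicate left out, Sp1 ranged from -0.42 to 0.033, Sp2 from -0.29 to 0.074, sw06703 from -0.42 to 0.083 and sw20839 from -0.064 to 0.73. A fit with no replicate block, which ignores the pairing on the array, gave sw13517 the same mean of 2.34 and an adjusted p of 0.26, and changed no call.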

Other observations

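The files list expressed sequence tags for 6071 gene probes, and the storage protein probes that reached the ceiling are among those with many. Only 18 gene probes list more tags than the arylphorin alpha probe sw06703, 56 list more than Sp2 and 208 list more than Sp1. The hexamerin probe sw13517 lists fewer than 3225 other probes do, and none is listed for sw16543 and sw20839. These tags come from many libraries of unequal size and give no level in these samples.

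A further probe annotated with oxygen transporter activity and described as diapause protein 1 (sw12657) fell outside the words used here. Its intensities were 38, 228 and 79 in phoxim RNA, against 190, 33 and 106 in control RNA, too dim to be tested, and on each array the higher value was in Cy3.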
